A study of Mus musculus with 2 samples.

Results

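The adult stromal vascular fraction of mouse inguinal fat held 521 cells with a high share of transcripts from Pi16, Dpp4, Anxa3, Sema3c, Wnt2 and Cd55, among 1378 stromal cells and 5429 cells of the adult library. They were chosen by 3 rules on unique molecular identifiers (UMIs), the counted transcripts of a cell: at least 1% of UMIs from Col1a1, Col1a2, Col3a1 and Dcn, no more than 1 UMI of the leukocyte gene Ptprc, and at least 0.1% of UMIs from the 6 markers. The 857 adult cells that passed the first 2 rules with a lower marker share are called ungated stromal cells. In the adolescent library the same rules gave 1073 gated and 531 ungated stromal cells of 3915 cells, and both libraries together held 9344 cells.

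Both groups were wild-type C57BL/6J males, at postnatal week 8 (adult, 5 mice pooled into 1 library) and week 2 (adolescent, 7 mice pooled into 1 library), with no transgene or treatment. Inguinal subcutaneous white fat was digested with collagenase, and cells that excluded the dead-cell dye 7-AAD were sorted and profiled with a droplet method that counts the 3′ ends of transcripts. The libraries held 29517430 adult and 28010800 adolescent UMIs. Each age is a single pool without replicates, so nothing was tested, and age, pool, sort and library cannot be told apart, and every interval given is a 95% interval that covers counting error only.

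White fat grows by making new adipocytes from fibroblast-like progenitors of the stromal fraction. Cells marked by Dpp4 and Pi16 are known as multipotent progenitors of the connective tissue sheath around the fat lobules, the interstitium, and can give rise to committed preadipocytes, which lie within the lobules and carry Icam1, Pparg and Fabp4. The sheath cells are also known for a fibroblast programme of elastic fibres and secreted signals of the Wnt and bone morphogenetic protein (BMP) families. The counts hold no position in the tissue, so the interstitial site is part of the name and not of the data.

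The gated cells made up 37.8% (35.2 to 40.4, exact binomial) of adult stromal cells and 9.60% of the adult library, against 66.9% (64.5 to 69.2) of adolescent stromal cells. Along the marker share, adult stromal cells formed a low and a high group with few cells between them. The median share was 0.666% in gated and 0.0168% in ungated cells, and 193 ungated cells had no marker UMI. Only 12 cells lay between 0.1% and 0.12% and 19 between 0.08% and 0.1%. The 3 lowest gated cells had shares of 0.101%, 0.104% and 0.104%, and the 3 highest ungated cells 0.0987%, 0.0976% and 0.0959%. Gated cells were shallower than ungated ones, with a median of 6366 against 9127 UMIs, and shallower than adolescent gated cells, with 10886. After each cell was thinned to 1000 UMIs before the rules were applied, 48.6% (45.9 to 51.2) of adult and 73.5% (71.2 to 75.6) of adolescent stromal cells were gated, and 97.1% of the 521 cells were found again. At that depth 1 marker UMI reaches 0.1%, so the return of most cells was nearly fixed beforehand. Of the 687 adult cells gated after thinning, 506 were also gated at full depth.

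**Figure D1:**
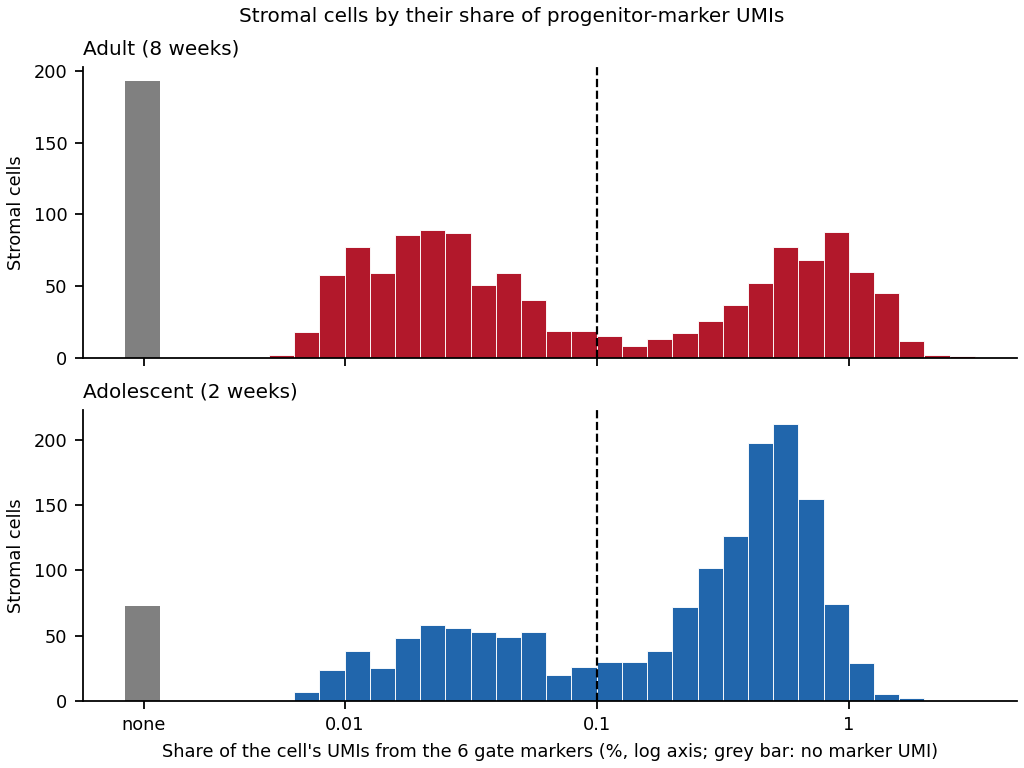
Number of stromal cells by the share of their UMIs from the 6 markers (percent, log axis) in the adult library (top, 1378 cells) and the adolescent library (bottom, 1604 cells). The dashed line is the 0.1% threshold and the grey bar the cells with no marker UMI; both ages show a low and a high group, and the high group holds 521 adult and 1073 adolescent cells.

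The 6 markers chose the cells, so their levels are a description. Levels are summed counts scaled to a common total (CPM) and are not divided by gene length, so a gene is compared between populations and not with another gene. Pi16, a secreted peptidase inhibitor, was at 4372 CPM in gated and 66.4 CPM in ungated adult cells and gave 61.7% of the marker UMIs. Dpp4, a peptidase of the cell surface, was at 345 against 9.95 CPM, and the membrane-binding annexin Anxa3 at 1457 against 51.8 CPM. The secreted guidance protein Sema3c was at 418 against 17.9 CPM, the ligand Wnt2 at 157 against 8.38 CPM, and Cd55, which restrains complement at the cell surface, at 343 against 56.6 CPM. At least 4 of the 6 were seen in 462 gated cells (88.7%), and Pi16 together with Dpp4 in 420 (80.6%), while 2 cells were gated on 1 marker alone.

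Each marker was then measured in cells chosen with the other 5 only, so that it took no part in the choice. All 6 were higher in the chosen adult cells. The CPM ratio was 42.7 (39.8 to 45.8) for Pi16, 28.6 (23.1 to 35.7) for Dpp4 and 21.5 (19.6 to 23.5) for Anxa3. It was 21.2 (17.9 to 25.2) for Sema3c, 18.5 (14.3 to 24.3) for Wnt2 and 5.86 (5.26 to 6.55) for Cd55. The size for Pi16 depended on the threshold, with a ratio of 14.8 when the other 5 had to reach 0.2% of UMIs, an alternative added after the values were seen. In the adolescent library the ratios ran from 5.67 for Cd55 to 16.4 for Wnt2. Droplets also take up free RNA. Adult B cells were cells with at least 2 UMIs of Cd79a and Cd79b together and under 1% of UMIs from the 4 stroma genes. They are not expected to express Pi16 and held it at 84.6 CPM. The rules themselves kept Pi16 low in ungated stroma, so its 66.4 CPM there cannot be set against that background. In adult stromal cells not chosen by the other 5 markers Pi16 was at 107 CPM. Cd55 was at 223 CPM in adult B cells, which do express it.

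Over the 5683 genes with at least 20 CPM in either sum, 421 genes (7.41%) were at least 2-fold higher in gated than in ungated adult cells and 340 (5.98%) at least 2-fold lower, with the 11 genes of the 3 rules left out. The same contrast chose the cells, so these counts describe them and nothing is read from their size. A gene that reached 20 CPM in one sum alone entered through the group where it was high, so here and between the ages the counts and medians over the measured members of a list are descriptions and support nothing. Of 32 genes known from Dpp4/Pi16 cells and not used by the rules, 28 were 2-fold higher, none was lower, and the median log2 ratio was 2.68, against -0.03 over all 5683 genes. The stem and progenitor antigens Cd34 (973 against 399 CPM) and Ly6c1 (2268 against 754 CPM), the calcium-binding protein Efhd1 (306 against 23.3 CPM) and the retinoic acid enzyme Aldh1a3 (163 against 5.37 CPM) were among them. Thy1 (log2 ratio -0.17), Tppp3 (-0.16), Clec3b (0.47) and Ly6a (0.57) lay within 2-fold. Per cell, the 32 genes took a median of 3.06% of UMIs in gated and 1.17% in ungated cells.

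The highest log2 ratio of the measured genes, 7.23, belonged to Krtdap. Dmkn, at 6.41, was the third after Nov, and their neighbour Sbsn, at 5.38, lay below the 12 highest. All 3 encode secreted proteins best known from the differentiating outer layers of the epidermis. Krtdap was at 157 CPM (144 to 170) in gated and 0.916 CPM in ungated adult cells, Dmkn at 189 (175 to 204) against 2.09 CPM, and Sbsn at 610 (584 to 636) against 14.5 CPM. The 6 keratinocyte markers summed to 78.0 CPM in gated and 85.5 CPM in ungated cells, Krt10 gave 75.7 CPM of the former, and Krt5 was at 0 UMIs. Adolescent gated cells held more Krtdap than adult ones, 431 CPM, and less Dmkn, 18.0 CPM.

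The 3 genes are neighbours on mouse chromosome 7 (GRCm38, GENCODE annotation), all on the plus strand and all protein-coding: Sbsn at 30751471 to 30756134, Dmkn at 30763756 to 30781063 and Krtdap at 30787896 to 30791097. They span 39627 bases with 0 other protein-coding genes between them. Their RefSeq promoter windows (GRCm38.p6, 250 bases before to 50 after a start) each hold the letters TGAGTCA, the element bound by AP-1 factors of the Fos and Jun families, which 5.20% of all 32851 promoter windows hold on either strand. Cldn15, one of the 12 genes with the lowest ratios, holds them too, so the letters are not particular to genes high in gated cells. The 30-base stretches are shown because these 3 neighbours were all higher in gated cells and all hold the letters, given in capitals.

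Sbsn: acaggagggatTGAGTCAtgaggggtgggg

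Dmkn: tggataggcccTGAGTCActggaggaggga

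Krtdap: tgatccggggaTGAGTCActagggtgggaa

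They lie at chr7:30751454-30751483, chr7:30763656-30763685 and chr7:30787813-30787842 on the plus strand. The letters begin 6 bases before the Sbsn start, 89 before a Dmkn start and 81 before the RefSeq start of Krtdap, which lies downstream of the GENCODE start given above. A match describes the sequence and shows no binding, and the locus and the letters were looked at after the values were seen.

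Within the gated cells Krtdap and Dmkn were detected in fewer cells than Sbsn, which also had more UMIs, so the genes are not compared by these shares. Krtdap was detected in 121 of 521 adult gated cells (23.2%), Dmkn in 126 (24.2%) and Sbsn in 336 (64.5%), against 0.435%, 0.348% and 2.70% of adult B cells. At 1000 UMIs per cell the shares were 10.6%, 11.5% and 34.0%. At least 1 of them was seen in 345 cells and all 3 in 76. Of the 121 Krtdap cells 115 also held Sbsn and 76 held Dmkn, and 123 of the 126 Dmkn cells held Sbsn. Over the 521 cells of this 1 library, Pearson's r of their shares of UMIs was 0.60 for Dmkn and Sbsn, 0.53 for Krtdap and Sbsn and 0.47 for Krtdap and Dmkn, each share having the cell's depth as its base. The 52 cells with most UMIs of a gene held 78.9% of the Krtdap, 80.8% of the Dmkn and 45.8% of the Sbsn UMIs. The share was 37.0% for Il1r2, 47.5% for Bmp7 and 49.0% for Akr1c18, and since it also depends on how many UMIs a gene has, the genes are not compared by it.

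**Figure D2:**
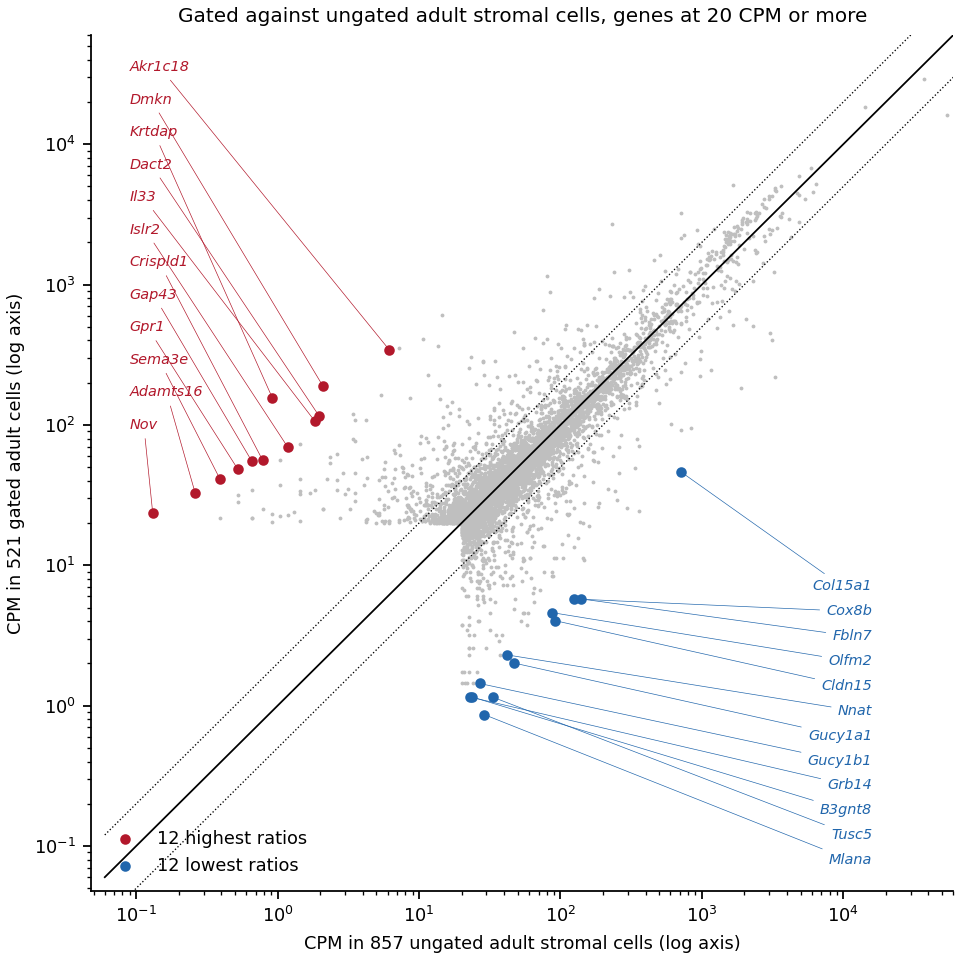
Level of each gene in 521 gated (vertical axis) against 857 ungated adult stromal cells (horizontal axis), in CPM on log axes, for genes at 20 CPM or more in either sum. The solid line is equality, the dotted lines are 2-fold, and the 12 highest and 12 lowest ratios are named: Krtdap, Nov and Dmkn stand farthest above and Mlana, Fbln7 and Tusc5 farthest below.

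The other genes with the 12 highest ratios had varied roles. Il33, a nuclear cytokine released on injury, was at 107 CPM in gated and 1.83 CPM in ungated cells. Akr1c18, which inactivates progesterone, was at 343 against 6.15 CPM, and the chemerin receptor Gpr1 at 48.4 against 0.524 CPM. The growth cone protein Gap43 was at 55.6 against 0.655 CPM, the protease Adamts16 at 32.5 against 0.262 CPM, Crispld1 at 55.9 against 0.786 CPM and Islr2 at 69.7 against 1.18 CPM. The matricellular protein Nov had 82 UMIs against 1, 180 times the level (31.5 to 7208). Under the alternatives given at the end the log2 ratio of Nov ran from 4.84 to 7.16. All the genes of this paragraph had 20 or more CPM in gated cells and under 7 CPM in ungated cells.

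Among Wnt ligands 4 of 14 reached 20 CPM in either sum, and 3 of the 4 did so in gated cells alone. They were Wnt10b, known to block adipogenesis, at 40.9 against 1.44 CPM, Wnt5b at 22.5 against 1.05 CPM and Wnt11 at 31.1 against 11.5 CPM. Wnt5a was within 2-fold, at 68.2 against 56.8 CPM. Of the secreted inhibitors, Sfrp4 (355 against 7.20 CPM) and Sfrp2 (1152 against 80.0 CPM) were higher, while Sfrp1 and Dkk2 were within 2-fold. Among 6 measured receptors Fzd2 was higher and Fzd1, Fzd4 and Lrp5 were lower. The intracellular regulators Dact1 (132 against 33.8 CPM) and Dact2 (116 against 1.96 CPM) were higher, and Tcf7l2 was lower, at 49.2 against 104 CPM. Over the whole Wnt list 9 of 22 measured genes were higher and 4 lower, against 7.41% and 5.98% of all 5683 genes.

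In the transforming growth factor beta (TGF-beta) and BMP list 10 of 31 measured genes were higher and 6 lower. The shares over all 5683 genes were 7.41% and 5.98%. Of 17 ligands 7 were measured and 4 were higher, all 4 at 20 CPM in gated cells alone. They were Bmp7 (73.4 against 1.44 CPM), Bmp4 (43.5 against 12.7 CPM), Bmp2 (24.2 against 10.2 CPM) and Tgfb2 (76.9 against 14.9 CPM). Gdf10 was lower, at 73.4 against 162 CPM. The type II receptor Tgfbr2 was at 353 against 102 CPM and the co-receptor Tgfbr3 at 216 against 90.2 CPM. The BMP antagonists Chrd (25.3 against 5.63 CPM) and Chrdl1 (80.3 against 11.3 CPM) were also higher, and the activin antagonist Fst was lower, at 240 against 707 CPM. The secreted semaphorins Sema3d (31.7 against 0.524 CPM) and Sema3e (40.9 against 0.393 CPM), were higher and reached 20 CPM in gated cells alone, and Sema3b was at 101 against 22.4 CPM. Of 4 measured semaphorin receptors Plxna1 was higher (log2 ratio 1.30), Nrp1 (31.1 against 94.9 CPM) and Plxnd1 (3.74 against 20.3 CPM) were lower, and Plxnb2 was within 2-fold.

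Matrix genes higher in gated cells included those of microfibrils. Fbn1, the main microfibril protein, was at 1278 against 305 CPM and its partner Mfap5 at 3254 against 707 CPM, and in all 6 of 20 measured genes of elastic fibres and microfibrils were higher and 1, the crosslinking enzyme Lox, was lower (84.9 against 268 CPM), with the other 13 within 2-fold. Col14a1, a collagen that coats fibrils, was at 462 against 46.7 CPM. The hyaluronan synthases Has1 (155 against 8.64 CPM) and Has2 (26.8 against 8.38 CPM) were both higher, as was Ugdh (799 against 174 CPM), which makes a precursor of hyaluronan. On the hyaluronan and proteoglycan list 5 of 16 were higher and 3 lower, where 7.41% and 5.98% of all 5683 genes were.

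Basement membrane genes went the other way, with 8 of 17 measured genes lower and 1, Lamb2, higher, against 5.98% and 7.41% of all genes. Col4a1 was at 185 CPM in gated and 1902 CPM in ungated cells, Col4a2 at 95.3 against 836 CPM, and Col15a1 at 46.1 (39.2 to 53.8) against 717 CPM. Laminin and nidogen genes were mostly within 2-fold: Lama2 was at 202 against 212 CPM and Nid1 at 1186 against 660 CPM. Of other collagens, Col5a3 and 2 chains of collagen VI, Col6a2 and Col6a3, were lower, and Col16a1 and Col6a6 were higher.

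Of 21 measured genes of committed preadipocytes 20 were 2-fold lower in gated cells and 1, Sult1e1, was higher, against 5.98% and 7.41% of all genes. The median log2 ratio was -2.95. Pparg, the master regulator of adipogenesis, was at 6.91 against 65.2 CPM, the lipase Lpl at 403 against 3119 CPM, the fatty acid transporter Cd36 at 29.1 against 251 CPM and Icam1 at 49.5 against 336 CPM. Fabp4, a fatty acid carrier, was at 219 against 3278 CPM. At 1000 UMIs per cell Fabp4 was seen in 15.6% of gated cells and in 16.3% of adult B cells. Its level was 219 CPM (203 to 235) in gated cells and 181 CPM (167 to 195) in adult B cells. The part of free RNA in the gated level was not tested. Per cell the list took a median of 0.132% of UMIs in gated and 1.53% in ungated cells. The general fibroblast receptor Pdgfra was present in both, at 179 and 273 CPM.

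Among the 12 lowest ratios were both subunits of the nitric oxide receptor guanylate cyclase, Gucy1a1 (2.02 against 46.7 CPM) and Gucy1b1 (1.44 against 26.8 CPM). Others with a link to fat cells were Tusc5, a protein of glucose transporter traffic (1.15 against 33.1 CPM), Cox8b, a respiratory chain subunit of brown and beige fat (5.76 against 125 CPM), and Grb14, an insulin receptor adaptor (1.15 against 23.0 CPM). Fbln7 (5.76 against 141 CPM), Cldn15 (4.03 against 92.0 CPM), Olfm2 (4.61 against 86.8 CPM), Nnat (2.30 against 41.6 CPM) and B3gnt8 (1.15 against 23.8 CPM) made up most of the rest. Mlana, a melanosome protein, had 3 UMIs in gated and 221 in ungated cells, a CPM ratio of 0.0299 (0.00611 to 0.0884). Its log2 ratio ran from -5.22 to -2.45 under the alternatives given at the end.

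Of 20 measured chemokine and cytokine genes 9 were lower, 2 higher and 9 within 2-fold. The niche chemokine Cxcl12 was at 78.9 against 345 CPM, the eosinophil attractant Ccl11 at 583 against 1341 CPM and Cxcl14 at 46.9 against 718 CPM. Il33 and Il6 (49.5 against 17.3 CPM) were the 2 that were higher. On a list of 10 genes of a further stromal subset marked by F3, 3 of 5 measured were lower, F3 itself at 16.4 against 114 CPM. Complement genes were higher in 2 of 14 (C3 and Clu) and lower in 4. Imprinted genes were higher in 2 of 10 (Cdkn1c, 117 against 19.1 CPM, and Meg3) and lower in 2. Dissociation response genes were higher in 1 of 17 (Nr4a1) and lower in 0. Per cell they took a median of 1.76% of UMIs in gated and 2.34% in ungated cells. Of all 5683 genes 7.41% were higher and 5.98% lower, and nothing is read from the list counts of this paragraph. Cell cycle genes were too rare to compare: 2 of 20 reached 20 CPM, both within 2-fold, and Mki67 had 4 UMIs in all gated cells.

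The levels also moved within the gate. The 71 gated cells with a marker share of 0.1% to 0.3%, the 156 with 0.3% to 0.6% and the 294 with 0.6% or more had similar depths, with medians of 6950, 6538 and 6187 UMIs. Sbsn was at 86.1, 430 and 857 CPM in this order and Krtdap at 28.1, 46.8 and 254 CPM, while Dmkn was at 1.87, 126 and 277 CPM. Mfap5 went from 1731 over 2761 to 3957 CPM. Col4a1 was at 547, 163 and 94.1 CPM and Col15a1 at 129, 38.2 and 27.0 CPM, so the cells nearest the threshold held more of the genes of ungated stroma. Fabp4 did not follow a straight order, at 444, 140 and 198 CPM. C3, a complement protein, was at 1550, 2062 and 1974 CPM. In ungated cells just under the threshold, at 0.05% to 0.1%, Fabp4 was at 1015 and Col4a1 at 1500 CPM.

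**Figure D3:**
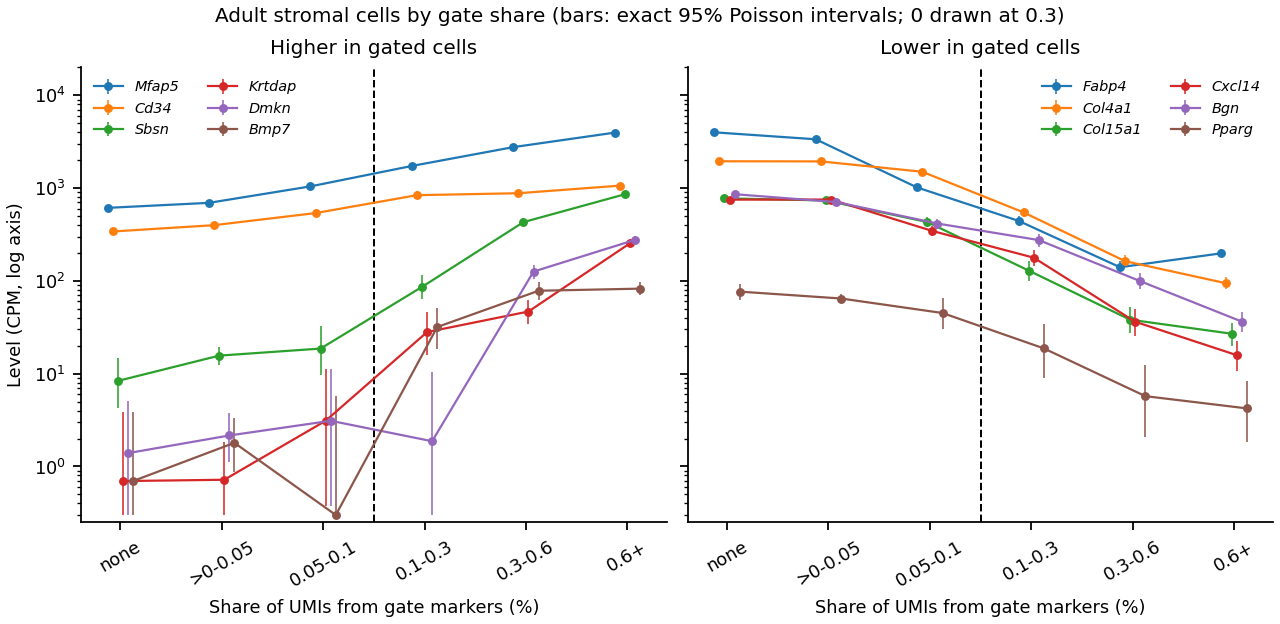
Levels (CPM, log axis) of 6 genes higher (left) and 6 lower (right) in gated cells, in adult stromal cells grouped by the share of their UMIs from the 6 markers (percent), with exact 95% Poisson intervals. The dashed line is the 0.1% threshold; Sbsn goes from 8.36 CPM in cells with no marker UMI to 857 CPM at 0.6% and more, and Col15a1 goes from 775 to 27.0 CPM.

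The second comparison set the adult gated cells against the adolescent cells under the same rules. Of the markers, Anxa3 was more than 2-fold apart, at 1457 CPM in adult and 685 CPM in adolescent gated cells. The others were within 2-fold, with Pi16 at 4372 CPM in adult and 2989 CPM in adolescent gated cells, Dpp4 at 345 and 293 CPM and Sema3c at 418 and 483 CPM. Of the 32 progenitor genes outside the rules 3 were 2-fold higher in adult cells (Pla1a, Procr and Smpd3), 3 lower (Krtdap, Gap43 and Uchl1) and 26 within 2-fold, with a median log2 ratio of 0.18. Over all 5472 genes measured 313 (5.72%) were 2-fold higher in adult gated cells and 104 (1.9%) 2-fold lower, with a median log2 ratio of 0.06. Without genes at least 5 times as high in cells outside the stroma rules as in either sum, an alternative added after the values were seen, 264 were higher and 98 lower. The abundant RNA Malat1 was at 28929 CPM in adult and 15523 CPM in adolescent gated cells, and at 36970 and 19834 CPM in ungated cells. What moved with Malat1 was not tested.

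RNA of immune cells moved with this comparison. The 12 myeloid markers summed to 2651 CPM in adult and 567 CPM in adolescent gated cells, with Cd74 the most abundant at 1224 and 189 CPM and no marker at 0 in either. Of the 12 myeloid markers 8 were measured, and all 8 were 2-fold higher in adult gated cells. Of all 5472 genes 5.72% were 2-fold higher and 1.9% lower. The 12 markers summed to 38616 CPM in the other cells of the adult library and to 20564 CPM in those of the adolescent library, and adult ungated stroma held 1951 CPM. The 8 T and NK cell markers summed to 229 against 61.1 CPM, the 6 B cell markers to 142 against 168 CPM and the 6 mast cell markers to 53.8 against 240 CPM. Mesothelial markers were nearly absent, at 19.6 and 19.8 CPM, and Msln and Upk3b were at 0 in adult gated cells. The endothelial list, at 156 and 136 CPM, was almost entirely Tek, with Tie1 and Emcn at 0 in the adult cells, and the mural list, at 22.5 and 139 CPM, was led in adolescent cells by Kcnj8. Schwann cell markers summed to 28.2 and 31.0 CPM, tendon markers to 0.576 and 1.70 CPM, mature adipocyte markers to 37.7 and 4.11 CPM, neutrophil markers to 31.7 and 118 CPM and erythrocyte markers to 48.7 and 34.9 CPM. The part of these cells' RNA in the age differences beyond the count above was not tested.

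**Figure D4:**
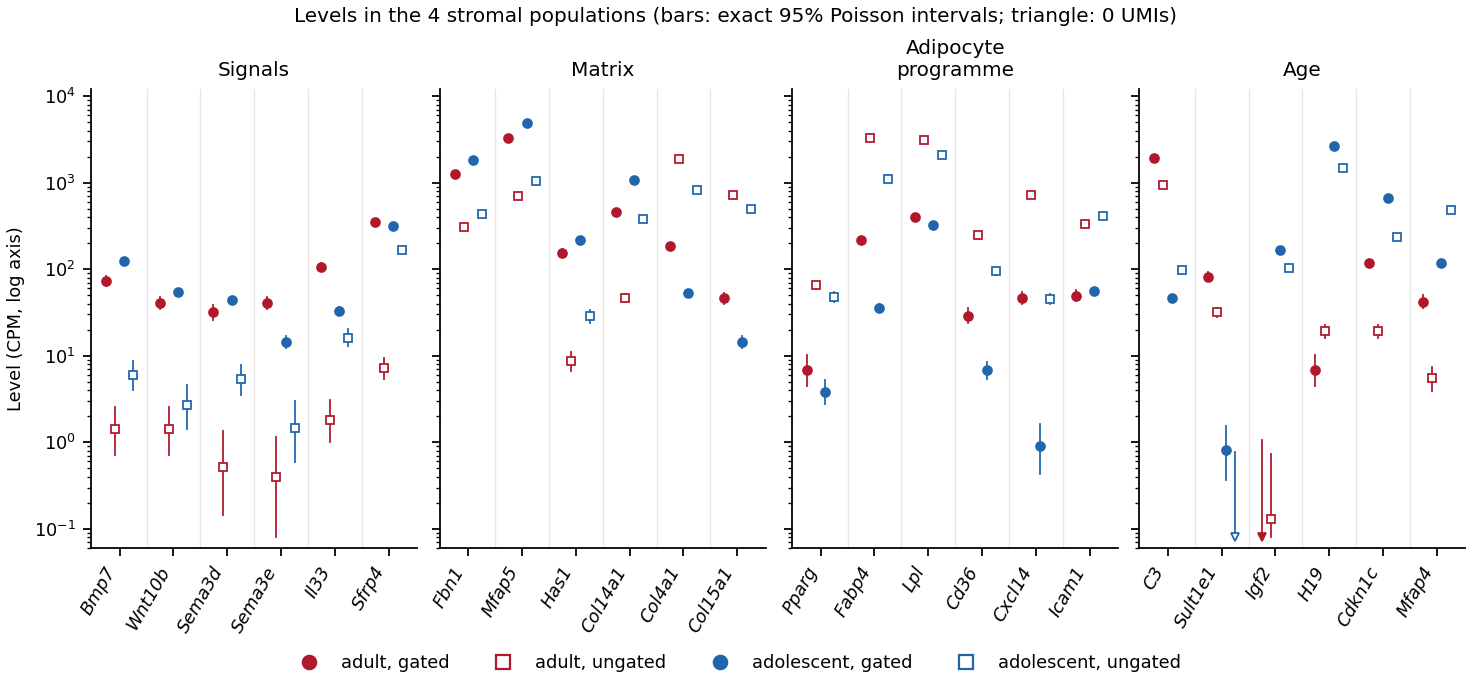
Levels (CPM, log axis) of 24 genes in 521 adult gated (filled red), 857 adult ungated (open red), 1073 adolescent gated (filled blue) and 531 adolescent ungated (open blue) stromal cells, with exact 95% Poisson intervals and triangles for 0 UMIs. Signal genes such as Bmp7 (73.4 against 1.44 CPM in the adult) are higher in gated cells at both ages, and C3, Igf2 and H19 separate the ages in gated and ungated cells alike.

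C3 and other complement genes were higher in the adult gated cells. Of 13 components 9 were measured and 8 were 2-fold higher, C2, Cfd and Cfp at 20 CPM in adult cells alone, and over the 14 measured of the whole list the count was 9, none was lower, and the median log2 ratio was 1.54. Of all 5472 genes 5.72% were 2-fold higher and 1.9% lower. C3, the centre of the cascade, was at 1935 CPM (1889 to 1982) in adult and 46.8 CPM (42.9 to 51.0) in adolescent gated cells, a ratio of 41.3 (37.8 to 45.2). At 1000 UMIs per cell it was seen in 80.7% of adult and 4.66% of adolescent gated cells, against 5.25% of adult B cells. The alternative pathway protease Cfb was at 174 against 26.7 CPM, C4b at 145 against 35.8 CPM and the C1 proteases C1ra and C1s1 at 550 against 191 and 521 against 177 CPM. Colec12 was within 2-fold. Among the 8, Cfp (27.1 against 7.24 CPM) and the adipocyte product Cfd (27.1 against 1.97 CPM), were higher in the other adult cells, at 311 and 84.6 CPM, and the part of free RNA in them was not tested. Of the regulators Vtn was higher, and Serping1, which blocks the C1 proteases, was at 2384 against 1244 CPM, within 2-fold.

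Sult1e1, which inactivates oestrogen by sulfation, had the largest log2 ratio among genes higher in the adult, 6.53. It was at 82.3 CPM in adult and 0.804 CPM in adolescent gated cells, and at 1000 UMIs it was seen in 6.13% and 0.0721% of cells. Il1r2, the decoy receptor of interleukin 1, was at 886 against 18.0 CPM, the receptor Il18r1 at 53.3 against 1.25 CPM and the B cell attractant Cxcl13 at 134 against 1.79 CPM. Pla1a, a phospholipase for phosphatidylserine, was at 656 against 20.3 CPM, and Wisp2, a matricellular protein, at 48.4 against 0.983 CPM. The transporter Slc16a9 (57.3 against 1.25 CPM), the methyltransferase Inmt (221 against 5.36 CPM), the peptidase Enpep (25.6 against 0.983 CPM) and the homeobox gene Msx1 (53.6 against 3.22 CPM) completed the 12 highest with Cxcl14 (46.9 against 0.894 CPM). Cxcl14 was seen in 2.32% of adult gated cells and 1.66% of adult B cells at 1000 UMIs, and the part of free RNA in it was not tested. The 71 cells nearest the threshold held 95 of its UMIs, at 178 CPM, against 38 and 30 UMIs, at 36.3 and 15.9 CPM, in the 156 and 294 cells of higher marker share.

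Genes lower in adult gated cells were led by imprinted genes, which are expressed from 1 parental copy and known for fetal and early postnatal growth. Of 12 measured imprinted genes 8 were 2-fold lower, none was higher, and the median log2 ratio was -2.34. In ungated stroma 11 of 14 were lower in the adult and 1 was higher, with a median of -2.25. Of all genes measured, 5.72% were higher and 1.9% lower in gated cells, and 4.07% and 2.98% in ungated stroma. Igf2, a fetal growth factor, had 0 UMIs in 521 adult gated cells and stood at 168 CPM in adolescent gated cells. A floor of 3 cells with a UMI would be 0.576% of the adult gated cells, which is not a 95% limit. With 3 UMIs in place of 0, Igf2 was 194.558-fold lower. That value is not a bound, since the 95% interval of the ratio reached up to 0.00633. H19, the noncoding RNA beside Igf2, was at 6.91 against 2638 CPM, Cdkn1c, an inhibitor of the cell cycle, at 117 against 672 CPM, Peg3 at 23.6 against 201 CPM and Plagl1 at 28.2 against 139 CPM. Dlk1, which holds back adipogenesis, was at 2.30 against 109 CPM. Meg3 (2454 against 4455 CPM), Ndn, Igf2r and Gnas were within 2-fold.

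Of the other genes with the 12 lowest ratios, Cthrc1 was at 3.74 against 553 CPM, pleiotrophin (Ptn) at 1.73 against 168 CPM, Thbs1 at 1.44 against 77.7 CPM and Fbn2, a fibrillin of developing tissue, at 5.47 against 72.3 CPM. The kinase Nrk was at 1.73 against 95.2 CPM, the potassium channel Kcnj8 at 6.62 against 107 CPM and the steroid enzyme Akr1c14 at 10.7 against 142 CPM. Agtr2, an angiotensin receptor, had 1 adult UMI against 237. Slc7a10, the amino acid transporter Asc-1, had 3 UMIs in adult and 264 in adolescent gated cells, a CPM ratio of 0.0366 (0.0075 to 0.108). It was not restricted to gated cells in adolescents, where ungated cells held 12.2 CPM against 23.6 CPM. Srr, the enzyme that makes D-serine, was at 15.0 CPM in adult and 11.4 CPM in adolescent gated cells. Cd24a was at 29.7 and 41.8 CPM, below the 173 and 256 CPM of the other cells.

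Of elastic fibre genes 5 of 21 were 2-fold lower in adult gated cells and 1, Fbln1, was higher. Elastin (Eln) was at 364 against 984 CPM and Mfap2 at 445 against 1402 CPM, while Fbn1 (1278 against 1836 CPM) and Mfap5 (3254 against 4915 CPM) were within 2-fold. Basement membrane genes were higher in 7 of 16 and lower in 0. Col4a1 was at 185 against 53.5 CPM, Col4a5 at 51.0 against 20.6 CPM and Col18a1 at 28.8 against 4.65 CPM. Of 24 measured Wnt genes 2 were higher and 3 lower, and of 31 TGF-beta and BMP genes 0 were higher and 4 lower. For comparison, 5.72% of all 5472 genes were higher and 1.9% lower, and nothing is read from the list counts of this paragraph. Rspo3, which amplifies Wnt signals, was at 9.79 against 41.7 CPM, Bmp3 at 17.6 against 52.6 CPM, and Bmp7 within 2-fold at 73.4 against 126 CPM. Of 7 measured Wnt receptors Fzd1 and Fzd7 were lower.

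Of 24 genes of committed preadipocytes 18 were measured, 10 were 2-fold higher in adult gated cells, 7 of them at 20 CPM in adult cells alone, and 2, Dlk1 and Fabp5, were lower. Col15a1 was at 46.1 against 14.4 CPM, Sparcl1 at 46.6 against 6.44 CPM and Hsd11b1, which activates glucocorticoids, at 45.2 against 2.95 CPM. Fabp4 was at 219 against 35.7 CPM, but the other adult cells held it at 570 CPM and adult B cells were close to the gated share of cells. The part of free RNA in its difference was not tested. Ungated adult stroma held more of all 4 than adult gated cells did. Chemokine and cytokine genes were higher in 7 of 16 and lower in 2, Cxcl12 (78.9 against 181 CPM) and Cxcl10 (66.8 against 262 CPM). Genes induced by tissue dissociation also moved, with 4 of 17 higher (Junb, Dusp1, Hspb1 and Nr4a1), 1, Ier3, lower, and a median log2 ratio of 0.68. Their part in the other differences was not tested. The list counts of this paragraph stand beside 5.72% of all 5472 genes higher and 1.9% lower.

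Many age differences of gated cells were shared by ungated stroma. Among 4972 genes measured in both, 248 were 2-fold higher with age in gated and 170 in ungated cells, and 115 in both, which is 46.4% of the gated and 67.6% of the ungated list. Over all 5498 genes measured in ungated cells, 4.07% were 2-fold higher and 2.98% lower in adults. For genes lower in the adult, 53 were shared by 77 gated and 125 ungated genes, 68.8% and 42.4%. H19 was at 19.1 against 1478 CPM, Dlk1 at 4.58 against 1080 CPM and C3 at 937 against 98.0 CPM in ungated adult and adolescent cells. The difference between the ages was therefore not confined to gated cells for these 3 genes.

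The contrast of gated with ungated cells was much alike at both ages. Over 5164 genes measured at both ages Pearson's r of the log2 ratios was 0.82 and Spearman's rho 0.64, a description across genes, which are not independent, of cells chosen by the same rules. In the adolescent library 297 of 5479 genes (5.42%) were 2-fold higher and 337 (6.15%) lower in gated cells. Of genes measured at both ages 225 were higher at both, 63.6% of the adult and 82.7% of the adolescent list, and 194 were lower at both, 72.9% and 67.6%. Bmp7 had log2 ratios of 5.55 in adults and 4.34 in adolescents, Wnt10b 4.71 and 4.25, Fbn1 2.06 and 2.06, and Col15a1 -3.95 and -5.11. Il33 had 5.77 in adults and 1.02 in adolescents, where gated cells held 33.1 CPM and ungated cells 16.2 CPM of it. Sfrp4 had 5.60 and 0.94, with 166 CPM in adolescent ungated cells.

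**Figure D5:**
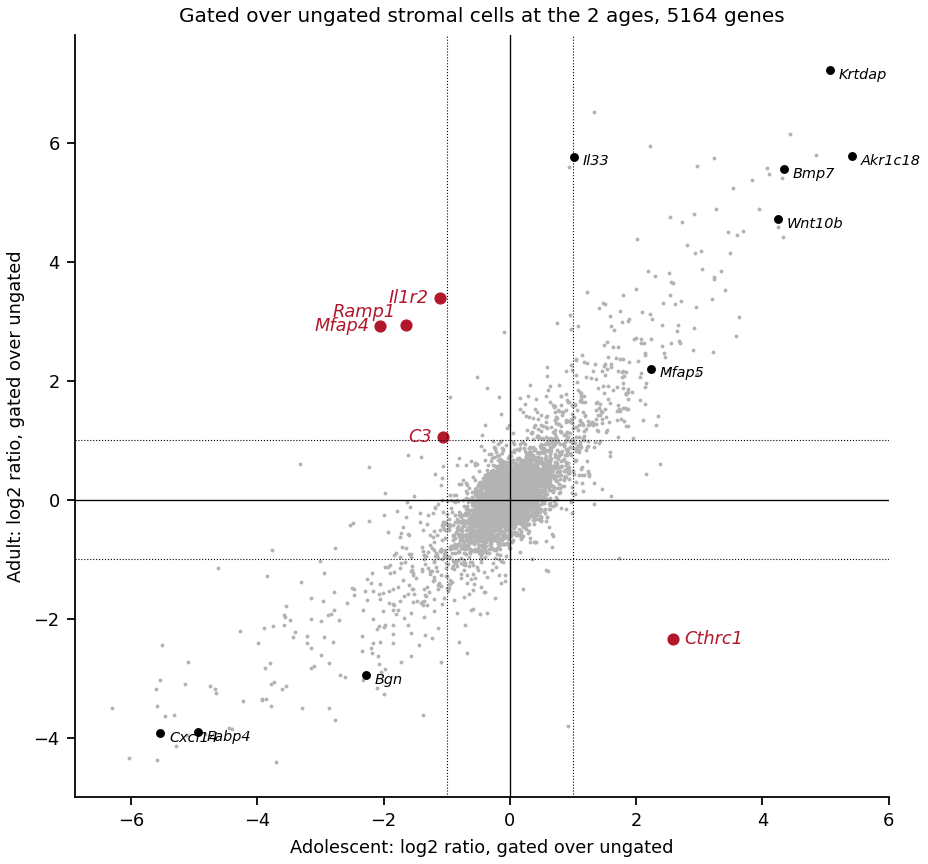
Log2 ratio of gated over ungated stromal cells in the adult (vertical axis) and the adolescent library (horizontal axis) for 5164 genes at 20 CPM or more in both contrasts; dotted lines are 2-fold. Most genes lie along the diagonal, and the 5 genes named in red (Il1r2, Ramp1, Mfap4, Cthrc1 and C3) were 2-fold apart in opposite directions at the 2 ages.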

How the data were processed

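Single-cell UMI counts of 1 adult (8 weeks) and 1 adolescent (2 weeks) library were used as deposited. The authors aligned reads to GRCm38 with Cell Ranger and deposited raw counts for 31125 genes, with cells already called and without normalization. Reads from near-identical copies are not split reliably, so Ly6c1 and Akr1c genes are uncertain. No sample column was left unused.

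Cells were gated on UMI shares as described, counts were summed per population and scaled to CPM. The log2 ratio had 1 UMI added to each sum, and a gene was called at 2-fold or more with 20 CPM in either sum. Exact Poisson, conditional binomial and exact binomial 95% intervals cover counting error only. A count of 0 was given a floor of 3 UMIs per sum. No test was possible with 1 library per age, and doublets were kept, with removal by Scrublet as an alternative (7 of the 521 cells were predicted doublets). Of the cell barcodes 22 occurred in both libraries, and no cell was gated in both. Named genes were the 12 highest and 12 lowest log2 ratios of each comparison, the gate genes, genes of the study and members of 17 gene lists and 13 cell type lists. The members and lists were chosen with earlier results of these data known. Python 3.11.15, numpy 2.4.6, scipy 1.17.1, pandas 2.3.3 and scanpy 1.11.5 were used, and the calls were tested on simulated data. Alternatives are given at the end. Some members of the gene lists are not reported here.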

Additional observations from a re-analysis of the deposited data

Results flagged for a closer look

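There were 5 genes at least 2-fold higher in gated than ungated cells at one age and at least 2-fold lower at the other, with counting intervals away from equality at both. With 1 library per age the difference was not tested. Il1r2, the interleukin 1 decoy receptor, had log2 ratios of 3.38 in adults (886 against 84.8 CPM) and -1.11 in adolescents (18.0 against 38.8 CPM). Ramp1, which partners the receptor for calcitonin gene-related peptide, had 2.93 (40.6 against 5.24 CPM) and -1.64 (10.4 against 32.4 CPM). Mfap4, a microfibril protein, had 2.92 (42.3 against 5.50 CPM) and -2.05 (118 against 489 CPM). Cthrc1, a secreted protein of matrix turnover, had -2.34 (3.74 against 20.3 CPM) and 2.58 (553 against 92.1 CPM). C3 had 1.05 (1935 against 937 CPM) and -1.06 (46.8 against 98.0 CPM). The Cthrc1 value of adults rests on 13 UMIs in gated cells.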

How the results depend on the processing

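The gated share of adult stromal cells was 43.5% with the threshold at 0.05%, 35.2% at 0.2%, 34.2% with Pi16 and Dpp4 alone and 48.6% after thinning to 1000 UMIs. With genes at 5 CPM or more, 703 genes were 2-fold higher and 661 lower in gated than ungated cells, and 673 higher and 263 lower in adult than adolescent gated cells. At 50 CPM or more these were 232, 190, 162 and 57, since fewer genes were counted. With the other 5 markers at 0.05% the ratio of Pi16 was 51.7. At 0.2%, both chosen after the data were seen, it was 14.8, with 22.1 for Dpp4, 14.6 for Anxa3 and 17.4 for Sema3c, and the cause was not tested. In the other 74 comparisons of these results with an alternative, shares and ratios stayed within their intervals and counts within 1.5 times. All 55 gene values and list medians of 2-fold or more kept their direction under each alternative run for them. Of these, 48 were the genes with the 12 highest or lowest ratios, whose direction could hardly change, and 7 were list medians. Other called genes were not followed singly. Some list medians under 2-fold changed sign, that of complement in gated against ungated cells from -0.06 to 0.07. Between the ages those of TGF-beta and BMP (-0.03 to 0.14), growth factors (-0.13 to 0.09) and semaphorins (-0.13 to 0.05) did too. Sizes were less steady, and 44 of the values for single genes and list medians under an alternative moved beyond their interval. The log2 ratio of Mlana ran from -5.22 to -2.45 and that of Tusc5 from -4.97 to -2.81 in gated against ungated cells. Between the ages Cxcl14 ran from 3.86 to 5.74 and Igf2 from -9.43 to -6.87. No paired analysis was possible because each age has 1 library. Depth limits genes with few UMIs, and pooling hides the spread between mice.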

Other observations

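Of 18 measured growth factors and binding proteins 5 were 2-fold higher in adult gated than ungated cells and 8 lower, where 7.41% and 5.98% of all 5683 measured genes were, and nothing is read from these counts. Igfbp4 (1498 against 455 CPM), Igfbp6 (5122 against 1672 CPM), Fgf2 (36.9 against 5.76 CPM) and Fgf18 (32.5 against 9.69 CPM) were among the higher ones, the last 2 at 20 CPM in gated cells alone. Igf1 (130 against 281 CPM), Igfbp7 (452 against 3032 CPM), Fgf10 (8.06 against 62.3 CPM) and Mdk (11.2 against 93.6 CPM) were among the lower ones. Between the ages, Igfbp4 was at 1498 CPM in adult and 372 CPM in adolescent gated cells, and Igfbp3 at 68.2 and 516 CPM. Of 6 measured retinoid genes the retinaldehyde dehydrogenases Aldh1a1 (123 against 44.0 CPM) and Aldh1a3 were higher in adult gated than ungated cells, and Rbp4 and Dhrs3 were among the lower ones.

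Another 148 adult cells reached the marker share without the 1% of stroma genes and were not gated. They were shallow, with a median of 2405 UMIs, Cd55 gave 45.7% of their marker UMIs, and the B cell gene Cd79a was detected in 82.4% of them. Of 40 adult cells with enough stroma genes but more than 1 Ptprc UMI, 14 reached the marker share.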
